A study of Klebsormidium nitens with 4 samples.

Results

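The genes described here are the chaperone genes HSP90 (kfl00002_0530), HSP101 (kfl00387_0020), CPN60A (kfl00113_0150) and CPN60B (kfl00076_0150) of the charophyte alga Klebsormidium nitens, chosen by the identifiers in the study's text. They are 4 of the 17290 genes in the expression table, and all 4 were measured above 0 in each of the 4 libraries. RNA-seq compared 2 independent cultures of strain NIES-2285 exposed for 3 h to 1500 µE m-2 s-1 (high light) with 2 independent cultures kept at 50 µE m-2 s-1 (low light). All cultures grew photoautotrophically in bubbled photobioreactors, and the low light cultures are the untreated controls. The values are FPKM, fragment numbers scaled by gene length and by library size, so that levels of different genes can be compared per length. In bulk RNA such as this, a change in the RNA per cell and a change in the mix of cells cannot be told apart.

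Chaperones bind unfolded or damaged proteins and help them to reach or regain their shape. HSP90 is an ATP-driven chaperone that acts late in folding on selected client proteins. HSP101 belongs to the ClpB family of disaggregases, ring-shaped ATPases that pull single polypeptides out of protein aggregates, in cooperation with HSP70. CPN60A and CPN60B are the alpha and beta subunits of the chloroplast chaperonin, a barrel that encloses newly made proteins while they fold and is best known for the large subunit of Rubisco. In plants, light beyond the capacity of photosynthesis damages chloroplast proteins, and plastid chaperones take part in their repair.

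The Arabidopsis best hits in the study's gene tables place all 4 genes in the chloroplast. They are the plastid HSP90, the plastid ClpB and the plastid chaperonin alpha and beta subunits. For HSP101 the best hit is thus the plastid ClpB and not the cytosolic protein that carries the name HSP101 in Arabidopsis. In the reference table of assembly ASM70883v1, HSP90 spans positions 307985 to 319650 of scaffold kfl00002 and HSP101 positions 5241 to 11389 of scaffold kfl00387. CPN60A spans 66967 to 74548 of scaffold kfl00113 and CPN60B 79408 to 86624 of scaffold kfl00076. The 4 genes therefore lie on 4 different scaffolds. The table gives no exons for them.

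All 4 chaperone transcripts were more abundant in both high light libraries than in either low light library. In the fit used here 3 of the 4 genes, HSP101, CPN60A and CPN60B, were called activated at the thresholds of the study. A gene is called activated where its log2 fold change reaches 1 and its adjusted p lies under 0.05, in a limma model on quantile-normalized log2(FPKM + 1) with Benjamini-Hochberg adjustment over all 17290 genes. With the same thresholds 4.0% of all genes were activated and 3.51% repressed (log2 fold change of -1 or lower), and 6.12% of the 11201 genes whose mean FPKM reached 1 in either light were activated. Both high light libraries lay above both low light libraries in 18.5% of all genes and in 28.1% of these 11201. The study named all 4 chaperones, HSP90 included, as examples of activated genes in the same libraries, so their count is not independent evidence of the direction. The call of HSP90 here thus differs from that of the study. The pseudocount of 1 and the lack of a filter were chosen here, as the study's methods give neither.

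HSP90 was at 142 and 169 FPKM in high light replicates 1 and 2, against 46.2 and 55.1 FPKM in low light replicates 1 and 2. The means were 155 ± 18.5 FPKM in high light and 50.6 ± 6.31 FPKM in low light (SD, n = 2 each). Every high light value was at least 2.58 times every low light value, and at most 3.65 times. The log2 fold change of 1.58 was the largest of the 4, with a 95% confidence interval of 0.88 to 2.29, but its limma adjusted p of 0.0552 missed the threshold. Its replicates were also the farthest apart among the 4 genes in high light, by 0.24 on the log2(FPKM + 1) scale, where the median gene differed by 0.16. With the genes of mean FPKM under 1 left out the limma adjusted p was 0.008, and HSP90 was called in 6 of 15 alternative settings, with an adjusted p between 0.008 and 0.257 over all of them.

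HSP101, the disaggregase, was at 74.6 and 81.5 FPKM in high light, against 39.0 and 31.7 FPKM in low light. The means were 78.1 ± 4.89 FPKM in high light and 35.4 ± 5.10 FPKM in low light (SD, n = 2 each). It was the least abundant of the 4 genes in every library and had the smallest log2 fold change, 1.19 (95% confidence interval 0.71 to 1.67, limma adjusted p = 0.0498). Its low light replicates differed by 0.29 on the log2(FPKM + 1) scale, against a median of 0.19 over the genes above 0 in all libraries. The call was lost with each library left out. Omitting low light replicate 1 or 2 gave a limma adjusted p of 0.122 or 0.137, and omitting high light replicate 1 or 2 gave 0.245 or 0.255. It was also lost with a pseudocount of 0.1 (limma adjusted p = 0.0508) and without normalization (0.0604), and the 15 alternatives spanned 0.00903 to 0.255.

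CPN60A, the alpha subunit, was at 106 and 123 FPKM in high light, against 46.5 and 46.9 FPKM in low light. The low light libraries were nearly equal, and the spread lay between the high light libraries, with means of 114 ± 11.5 FPKM in high light and 46.7 ± 0.295 FPKM in low light (SD, n = 2 each). CPN60A had a log2 fold change of 1.28 (95% confidence interval 0.96 to 1.61, limma adjusted p = 0.0324). This call too was lost with each library left out, at a limma adjusted p of 0.170 and 0.160 without low light replicates 1 and 2, and of 0.114 and 0.121 without high light replicates 1 and 2. The 15 alternatives spanned 0.00681 to 0.170.

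CPN60B, the beta subunit, was the most abundant of the 4 in every library, with 231 and 230.03 FPKM in high light, against 77.9 and 89.3 FPKM in low light. Here the high light libraries were nearly equal and the low light libraries differed by 0.19 on the log2(FPKM + 1) scale, with means of 231 ± 0.861 FPKM in high light and 83.6 ± 8.06 FPKM in low light (SD, n = 2 each). CPN60B had a log2 fold change of 1.40 (95% confidence interval 0.92 to 1.87, limma adjusted p = 0.042). Without low light replicate 1 or 2 the log2 fold change was 1.28 or 1.56. The spread in these fits comes from the high light libraries alone, which were nearly equal, so these fits cannot show whether the call holds. Without high light replicate 1 or 2 the log2 fold change was 1.37 in each fit, and the call was lost, as the limma adjusted p rose above 0.05. The 15 alternatives spanned 0.00733 to 0.240.

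**Figure D1:**
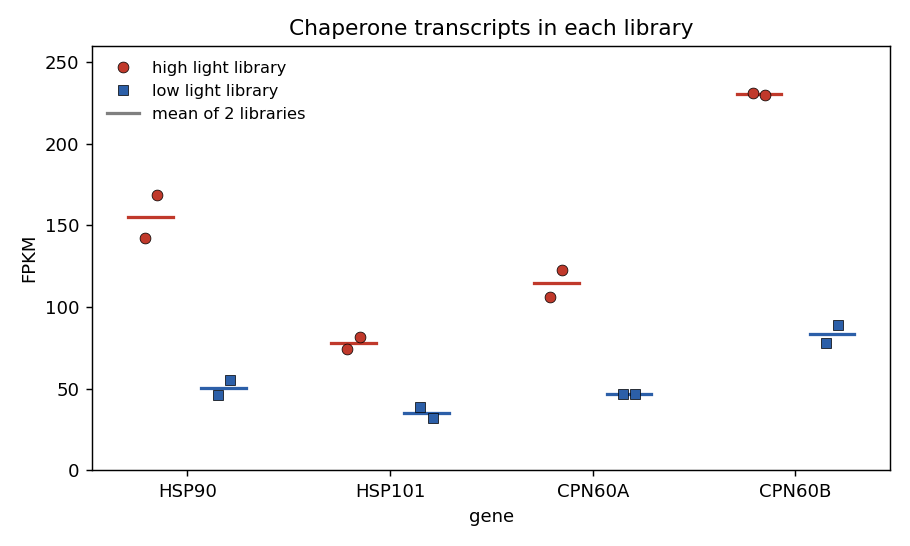
FPKM (y axis) of the 4 chaperone genes (x axis) in each high light library (red circles) and low light library (blue squares), with lines at the mean of the 2 libraries of a light. For every gene both high light points lie above both low light points, and CPN60B reached the highest level, 231 and 230.03 FPKM in high light.

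Summed over the 4 genes, the chaperones took 0.0894% and 0.0972% of all FPKM in high light, against 0.0317% and 0.0339% in low light. Within this sum CPN60B took 41.7% and 38.2% in high light, against 37.2% and 40.0% in low light, and the lights overlapped. HSP90 took 25.7% and 28.0% in high light, against 22.0% and 24.7% in low light, and HSP101 took 13.5% in each high light library, against 18.6% and 14.2% in low light. CPN60A took 19.2% and 20.3% in high light, against 22.2% and 21.0% in low light. The lights overlapped for CPN60B alone, and both high light shares were above both low light shares for HSP90 and below them for HSP101 and CPN60A. The shares are parts of the same sum, so they do not move independently, and no test was run on them. In rank among the 17290 genes, CPN60B stood at 418 in both high light libraries, against 1431 and 1155 in low light. HSP90 stood at 724 and 589 in high light, against 2399 and 1945 in low light. HSP101, the lowest, stood at 1402 and 1287 in high light, against 2800 and 3260 in low light.

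The order of the levels was CPN60B, HSP90, CPN60A and HSP101 in both high light libraries, and no neighbours in that order overlapped. In low light CPN60B was again first and HSP101 last. HSP90 and CPN60A could not be told apart there, as HSP90 was just under CPN60A in low light replicate 1, with 46.2 against 46.5 FPKM, and above it in low light replicate 2, with 55.1 against 46.9 FPKM.

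The ratio of CPN60A to CPN60B shows whether the chaperonin subunits kept their balance at the transcript level. The ratio was 0.460 and 0.533 in high light, against 0.597 and 0.526 in low light. CPN60B was thus the more abundant subunit in every library, 2.18 and 1.88 times CPN60A in high light, against 1.67 and 1.90 times in low light. The ranges of the lights overlapped, and the difference in mean log2 ratio, -0.18, was not distinguishable from the spread between replicates (exact two-sided permutation test, p = 0.667). With 2 libraries against 2 this test cannot go below 0.333. The difference moved to -0.09 without low light replicate 1 and to -0.07 without high light replicate 1, and to -0.27 and -0.29 without the other replicate of each light. With quantile-normalized values it was -0.11.

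The disaggregase was below the chaperonin in every library. HSP101 stood at 0.442 and 0.462 of the mean of CPN60A and CPN60B in high light, against 0.626 and 0.466 in low light. The lights did not overlap, but the gap between the nearest libraries was small, and low light replicate 1 stood apart from the other 3 libraries. The difference in mean log2 ratio was -0.26 (exact two-sided permutation p = 0.333, the smallest possible here). Without low light replicate 1 it was -0.04, and without low light replicate 2 it was -0.47. Set against the lower subunit alone, CPN60A in every library, the difference was -0.14 (exact two-sided permutation p = 0.667). With quantile-normalized values it was -0.15. The lights were not separated in either of these alternatives.

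HSP90 stood at 0.844 and 0.956 of the mean chaperonin level in high light, against 0.742 and 0.809 in low light. Both high light ratios were above both low light ratios, and the difference in mean log2 ratio was 0.21 (exact two-sided permutation p = 0.333, the smallest possible). It was 0.12 without high light replicate 2 and between 0.15 and 0.30 without each of the other libraries. Adjusted over the 3 ratios tested, the p-values were 0.667 for CPN60A to CPN60B and 0.500 for each of the others. Set directly against the disaggregase, HSP90 was at 1.91 and 2.07 times HSP101 in high light, against 1.18 and 1.74 times in low light.

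**Figure D2:**
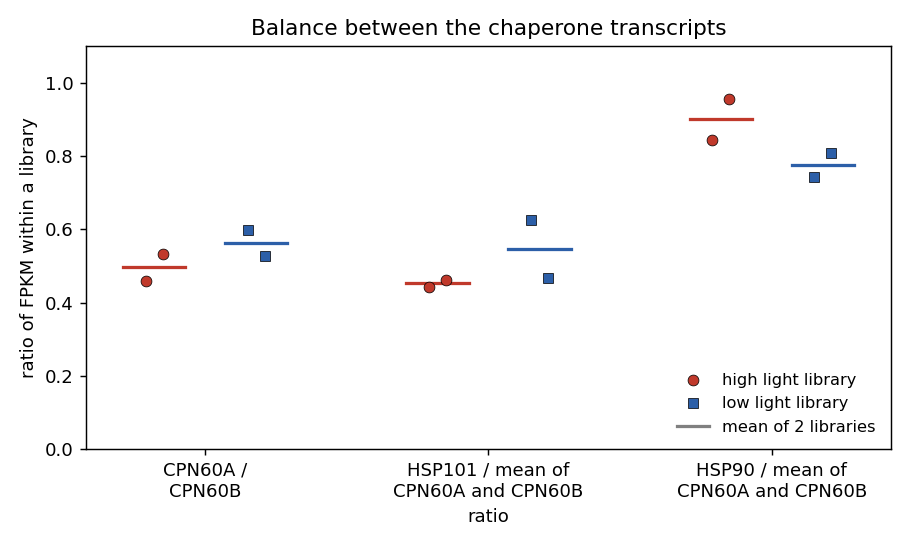
Ratio of FPKM within a library (y axis) for CPN60A over CPN60B, HSP101 over the mean chaperonin level and HSP90 over the mean chaperonin level (x axis), in each high light library (red circles) and low light library (blue squares), with lines at the mean of 2 libraries. The lights overlap for CPN60A over CPN60B, and for HSP101 the low light ratio of 0.626 lies apart from the other 3 libraries, between 0.442 and 0.466.

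To set the folds beside genes measured at a like level, each chaperone was ranked among the 500 genes nearest to it in mean log2(FPKM + 1) over the 4 libraries. HSP90 had a larger log2 fold change than 95.6% of these genes, HSP101 than 94.4%, CPN60A than 92.8% and CPN60B than 94.2%. These shares describe the place of each gene and are no test, and the 4 groups of 500 genes share members. The median log2 fold change of the like genes lay near 0, from -0.11 around HSP101 to -0.04 around CPN60A. Of the like genes, 9.2% were activated around HSP90, 6.4% around HSP101, 8.6% around CPN60A and 10.8% around CPN60B. The share was 4.0% over the whole table and 6.12% over the genes whose mean FPKM reached 1 in either light, near that around HSP101. Each chaperone still had 22 to 36 like genes with a larger fold, 22 for HSP90 and 36 for CPN60A.

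The place depends on how like genes are chosen. Where they were chosen by low light level alone, the shares with a smaller log2 fold change were 98.6% for HSP90 and 96.0% for HSP101. They were 97.2% for CPN60A and 97.4% for CPN60B. Among the 11201 genes whose mean FPKM reached 1, a larger log2 fold change than that of HSP90 was found in 4.00%, than that of CPN60B in 5.58%, than that of CPN60A in 7.03% and than that of HSP101 in 8.27%.

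**Figure D3:**
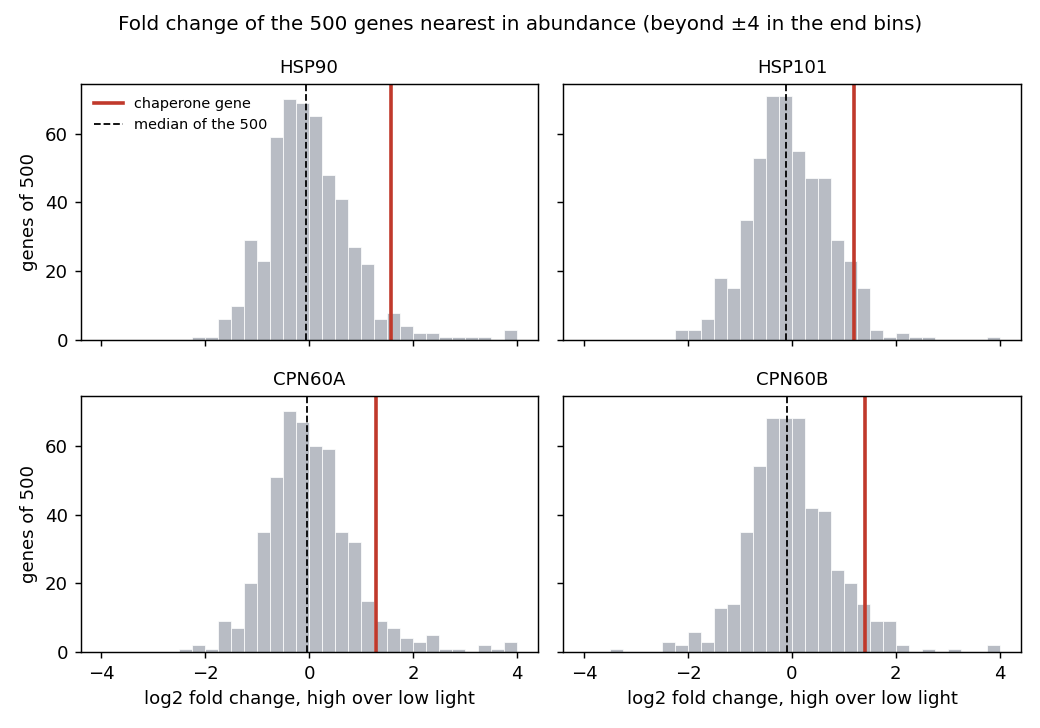
Number of genes (y axis) by log2 fold change of high over low light (x axis) among the 500 genes nearest in abundance to each chaperone, 1 panel per chaperone, with values beyond ±4 in the end bins. The red line is the chaperone and the dashed line the median of its 500 genes, and each red line lies in the right tail, with 22 to 36 genes beyond it.

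For each chaperone the genes with the nearest values over the 4 libraries were found by the Euclidean distance of log2(FPKM + 1). The nearest to HSP90 were kfl00383_0090 (distance 0.21) and kfl00933_0020 (0.22), and the nearest to HSP101 were kfl00399_0020 (0.17) and kfl00157_0250 (0.17). For CPN60A they were kfl00323_0120 (0.11) and kfl00298_0090 (0.15). CPN60B was nearest to kfl00014_0120 (0.24) and to kfl00292_0140 (0.26), whose best hit is the mitochondrial CPN60. All 8 of these genes were activated in the limma fit, on the same values that made them near. Among the chaperones themselves the closest pair was HSP90 and CPN60A, at a distance of 0.66, with 33 other genes nearer to HSP90 than CPN60A was. The subunits CPN60A and CPN60B were 1.85 apart, with CPN60B the higher in every library.

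On their scaffolds the 4 chaperone genes have 8 adjacent genes in the reference table, of which 3 were listed at 0 in all libraries. Of the other 5, none was activated or repressed at the thresholds, beside 4.0% activated and 3.51% repressed over all genes. Among the genes whose mean FPKM reached 1 in either light, 6.12% were activated. The largest difference was in kfl00076_0140, which lies 171 bp from CPN60B and had 22.0 and 20.7 FPKM in high light, against 43.1 and 46.8 FPKM in low light. Its log2 fold change of -0.94 ran opposite to that of CPN60B (limma adjusted p = 0.047). With the ratio of mean FPKM in place of the log2 threshold, kfl00076_0140 counts as repressed. The other 4 had log2 fold changes of 0.15 to 0.64.

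The study's tables of activated and repressed genes give best hits for 9 other genes that are chaperones or chaperone partners in Arabidopsis. These tables hold only genes that changed in the same libraries, so the count of 8 activated genes among the 9 follows from how the list was made, and their values are given as a description. The names below are those of the Arabidopsis best hits.

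In the chloroplast, HSP70 (kfl00460_0030), the partner of ClpB in freeing aggregated proteins, was the most abundant of all, at 644 and 638 FPKM in high light, against 201 and 194 FPKM in low light. GrpE (kfl00006_0350), which renews the nucleotide on HSP70, was at 233 and 247 FPKM in high light, against 117 and 99.9 FPKM in low light. HSP70 stood at 2.77 and 2.58 times GrpE in high light, against 1.71 and 1.94 times in low light. The log2 fold change was 1.57 for the plastid HSP70 and 1.04 for GrpE.

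CPN20 (kfl00475_0020), the lid of the chloroplast chaperonin, was at 232 and 237 FPKM in high light, against 96.9 and 94.5 FPKM in low light, a log2 fold change of 1.20. Relative to the mean of CPN60A and CPN60B it stood at 1.37 and 1.34 in high light, against 1.56 and 1.39 in low light. The lid was thus above the mean chaperonin level in every library. SRP43 (kfl00663_0020), a chaperone of light-harvesting proteins on their way to the thylakoid, ran the other way, at 6.08 and 5.47 FPKM in high light, against 14.1 and 13.9 FPKM in low light. Its log2 fold change of -0.85 on quantile-normalized values missed the fold threshold. This call turned with the scaling too, as SRP43 was repressed without normalization (-1.15) and by its ratio of mean FPKM of 0.413, and was not called with median scaling (-0.95) or cyclic loess (-0.84).

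Outside the chloroplast, the mitochondrial CPN60 (kfl00292_0140) was at 217 and 216 FPKM in high light, against 88.3 and 81.5 FPKM in low light, with a log2 fold change of 1.29 that lay between those of CPN60A and CPN60B. The sum of the chloroplast subunits was 1.55 and 1.64 times the mitochondrial CPN60 in high light, against 1.41 and 1.67 times in low light, and the lights overlapped. The mitochondrial HSP70 (kfl00190_0180) was at 251 and 263 FPKM in high light, against 120.2 and 115 FPKM in low light, and had the smallest log2 fold change of the 8 activated genes, 1.01.

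Beside the chloroplast HSP90, with its log2 fold change of 1.58, stood those of the cytosol and the endoplasmic reticulum. The cytosolic HSP90 (kfl00080_0140) was at 222 and 227 FPKM in high light, against 21.3 and 18.2 FPKM in low light, a log2 fold change of 3.47. This gene was under the chloroplast HSP90 in low light and above it in high light. The chloroplast HSP90 stood at 0.640 and 0.742 of this gene in high light, against 2.17 and 3.03 in low light. Genes that did not change were not listed, so the level of all cytosolic HSP90 together cannot be given. The HSP90 of the endoplasmic reticulum (kfl00416_0110) was at 56.5 and 49.8 FPKM in high light, against 27.5 and 24.3 FPKM in low light. It lies 397 bp from kfl00416_0100, whose best hit is BiP, the HSP70 of the same compartment. BiP was at 342 and 344 FPKM in high light, against 92.0 and 101 FPKM in low light, and the log2 fold change was 1.74 for BiP and 1.08 for the HSP90 beside it.

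**Figure D4:**
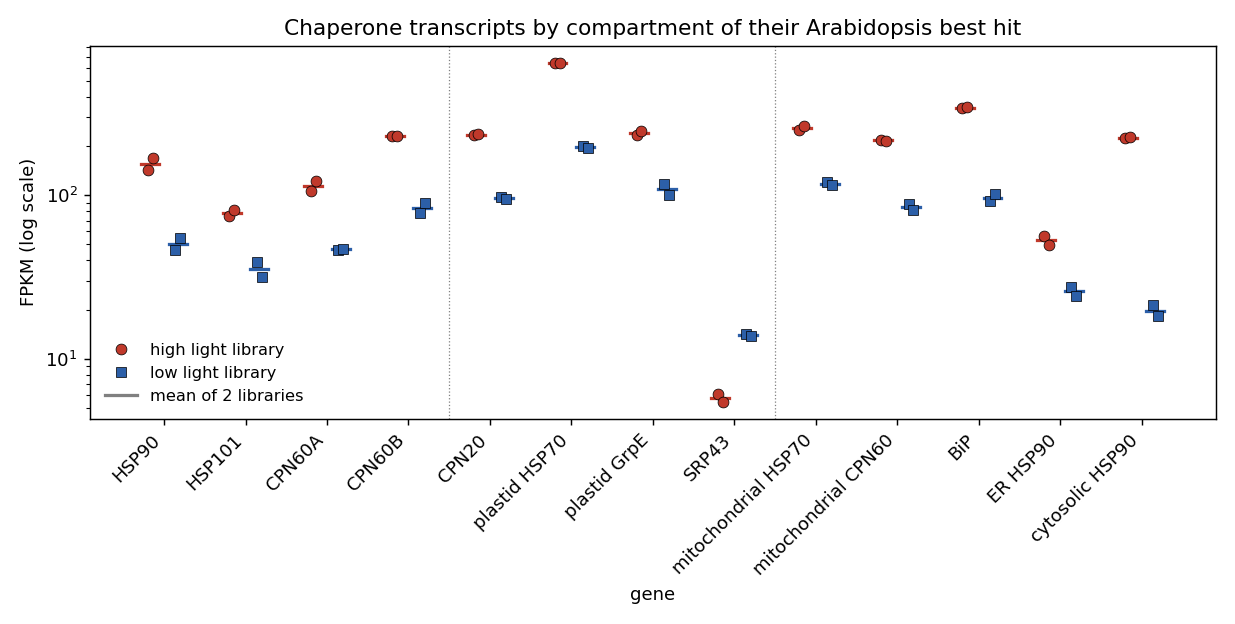
FPKM on a log axis (y axis) of the 4 chaperones (left of the first dotted line), the other chloroplast genes (between the dotted lines) and the genes of other compartments (right), named by their Arabidopsis best hit (x axis), in high light (red circles) and low light (blue squares), with lines at the mean of 2 libraries. The cytosolic HSP90 has the widest gap, 222 and 227 FPKM in high light against 21.3 and 18.2 FPKM in low light, and SRP43 is the one gene with high light below low light.

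The passage of the study that names the chaperones also names 7 genes of protease, thioredoxin, catalase and peroxiredoxin proteins. Of these, 6 were activated, beside 4.0% of all genes and 6.12% of those whose mean FPKM reached 1, and none was repressed. Their median log2 fold change was 1.09, against 1.34 for the 4 chaperones. The median was 0 over all 17290 genes and -0.03 over those whose mean FPKM reached 1. All 7 were higher in both high light libraries than in either low light library, as were 18.5% of all genes and 28.1% of those whose mean FPKM reached 1. Among them a peroxiredoxin gene (kfl00014_0250) was near the floor, at 4.34 and 4.87 FPKM in high light and 0 in both low light libraries. Its log2 fold change depends on the pseudocount, with 2.68 at 1 and 5.79 at 0.1. The one gene not called was the catalase (kfl01057_0030), with a log2 fold change of 0.90 on quantile-normalized values. That call turned with the scaling, as the catalase was activated without normalization (1.01), with cyclic loess (1.04), with median scaling (1.22) and by a ratio of mean FPKM of 2.02. These genes, too, were picked by the study from the same libraries, and the study reports the catalase as activated.

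The number of chaperones called changed with the fit, while the log2 fold change of each stayed above 1 in the settings shown here. The lowest was 1.07, for HSP101 without low light replicate 2, and the highest 1.81, for HSP90 with median scaling of FPKM. All 4 were activated with the genes of mean FPKM under 1 left out, where 10.8% of the genes tested were activated, and over the genes above 0 in at least 1 library, where 10.1% were. All 4 were also activated with median scaling (4.5% of all genes), cyclic loess (5.03%) and a variance trend (5.53%).

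Without normalization 3 chaperones were activated, HSP90 among them and HSP101 not, beside 2.98% of all genes. With a ratio of mean FPKM of 2 in place of the log2 threshold the same 3 as with the log2 threshold were called, beside 3.62% of all genes. A pseudocount of 0.1 left CPN60A and CPN60B, beside 4.3% of all genes. Omitting low light replicate 1 or 2 left CPN60B alone, beside 1.04% and 0.977% of all genes. Omitting high light replicate 1 or 2 left none of the 4 by limma, beside 0.816% and 0.879% of all genes, with 2 and 1 of the chaperones at an unadjusted p below 0.05. At an adjusted p below 0.01 limma called none of the 4 and 0.162% of all genes, with all 4 at an unadjusted p below 0.05.

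**Figure D5:**
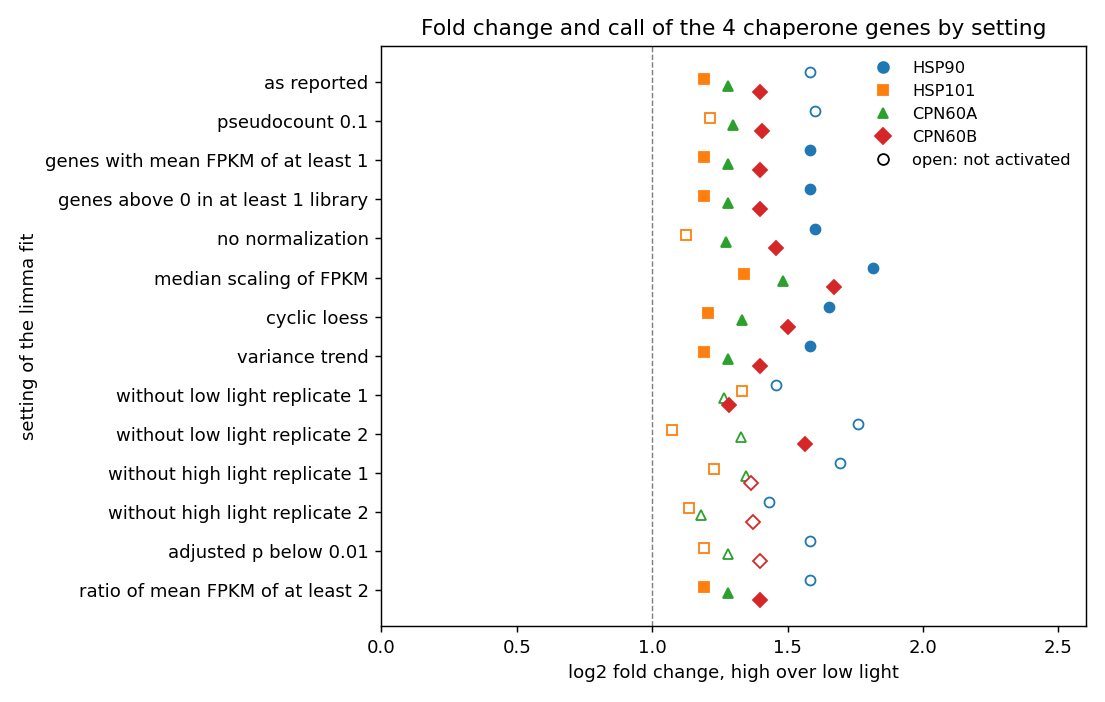
Log2 fold change of high over low light (x axis) of the 4 chaperone genes by setting of the limma fit (y axis), with filled symbols for genes called activated and open symbols for genes not called. The settings with a replicate block, where 0 of the 4 genes were called, are not shown. The dashed line is the log2 threshold of 1, and every symbol lies to its right, between 1.07 and 1.81.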

How the data were processed

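RNA was measured in 2 high light and 2 low light cultures. The authors ran the MARACAS pipeline, with HISAT2 as the aligner and StringTie as the quantifier, on version 1.0 of the K. nitens genome. They deposited FPKM per gene and library, before their quantile normalization. Tool versions are not given in the sources used here. All 4 sample columns were matched by name. The study reports an approximate sequencing depth per sample, but FPKM keep no read numbers per gene, so counting intervals are left out. The FPKM summed to between 620013 and 660467 per library, with 11096 to 11321 genes above 0.

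A pseudocount of 1 was added and log2 values were quantile normalized and fitted in limma 3.58.1 (R 4.3.3), without a filter, over all 17290 genes. Limma, the normalization and the thresholds (log2 fold change of at least 1 or at most -1, adjusted p below 0.05) follow the study. This fit was first run on simulated data in which 200 genes changed by a factor of 4, and the sign and size of their changes were checked. Their recovery was checked only with the filter for genes above 0 in at least 1 library. Smaller changes were not simulated. Ratios and exact permutation tests used Python 3.11.15. All p-values rest on 2 cultures per light, and limma moderates the variance of each gene over all genes in the fit. Genes named are the 4 chaperones, the chaperones by best hit and the 2 nearest genes of each chaperone. BiP, SRP43 and the other best hits come from tables that list changed genes only. The members and lists were chosen with earlier results of these data known, and the ratios beyond the 3 tested and the adjacent genes were added after the values were seen. Locus numbers of 16199 features matched the reference table of ASM70883v1. The study cites its genome as version 1.0, by a scaffold found in that assembly. Alternatives covered the pseudocount, filters, normalization, each library left out, a replicate block, a variance trend, a stricter adjusted p and the choice of like genes. A list of chaperone families by protein similarity was planned but not run, since protein sequences were not used here.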

Additional observations from a re-analysis of the deposited data

How the results depend on the processing

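All 4 chaperones kept a positive log2 fold change of at least 1 under every alternative run, and no mean ratio difference changed sign. With genes of mean FPKM under 1 left out, limma called 1212 activated and 1222 repressed genes, and over those above 0 in at least 1 library 1199 and 1216, against 691 and 607 over all 17290. In both filtered fits 4 chaperones instead of 3 were activated. Without normalization activated genes were 37.0% of the calls instead of 53.2%, and genes above 0 in all libraries had a median log2 fold change of -0.22, where HSP101 had 1.13 and HSP90 1.60. At an adjusted p below 0.01, 28 genes were activated and 25 repressed, and 0 of the 4 chaperones, though all 4 had an unadjusted p below 0.05. With each library left out, limma called 141 to 180 activated and 75 to 242 repressed genes, and 0 to 1 of the chaperones, 0 without high light replicate 1 or 2, with 2 and 1 of them at an unadjusted p below 0.05. In these fits the lone library is assumed to vary like the other light.

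The labels do not say that a replicate number marks a shared batch. The deviations of same-numbered libraries had a weak negative correlation (r = -0.19 across 11201 genes, which are not independent). With a replicate block limma called 0 activated and 0 repressed genes and 0 of the chaperones, with 4365 genes at an unadjusted p below 0.05. With the crossed pairing, chosen after seeing the data, these counts were 0, 0 and 0, with 4383 genes. With 2 balanced pairs a block cannot move a mean log2 ratio difference (-0.18, -0.26 and 0.21). The differences within the pairs numbered 1 and 2 were -0.38 and 0.02 for CPN60A to CPN60B, which differ in sign, -0.50 and -0.01 for HSP101 to the chaperonin, and 0.18 and 0.24 for HSP90 to the chaperonin.

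When like genes were chosen by low light level, the share with a smaller fold was 98.6% for HSP90 and 96.0% for HSP101. It was 97.2% for CPN60A and 97.4% for CPN60B, and among 200 genes it was 91.5% for CPN60B. With each library left out it was 93.6% to 98.0% for HSP90, 90.6% to 94.8% for HSP101, 91.6% to 94.6% for CPN60A and 90.0% to 94.8% for CPN60B. Families by protein similarity were not run. With FPKM the counting error of each value is unknown.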
